A study of Mus musculus with 12 samples.

Results

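The comparison concerned folic acid dose in mammary fat pads whose RNA carried a strong lymph node signal. The parent set was RNA sequencing of 12 right thoracic mammary fat pads from female C57BL/6 mice at postnatal day 84, 4 weeks after folic acid supplementation at 5 mg/kg or 1 mg/kg. The labels do not say per kilogram of what the doses were given, and no group without folic acid was analysed here. The libraries were chosen by a measured level: one was kept when Ms4a1, the gene of the B cell surface protein CD20, reached 5 CPM, its reads scaled to the total of gene-assigned reads. Of the 12 libraries, 7 met this rule: replicates 1, 2 and 3 of the 5 mg/kg group and replicates 1, 3, 5 and 6 of the 1 mg/kg group. The other 5, called node-poor here, comprised 3 libraries of the higher dose and 2 of the lower. All 12 pads were excised whole and frozen, the labels name no allele, and no litter, cage or batch is given. The labels do not state that each library came from a separate animal, so p-values measure only the spread between these libraries.

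The thoracic mammary fat pad is a composite organ. A sparse tree of luminal and myoepithelial cells lies in white fat with collagen-rich stroma and vessels, and lymph nodes, skeletal muscle and brown fat lie against it and can be taken with it. Lymph nodes hold B cell follicles, organised by the chemokine Cxcl13, and T cell zones, and lymphocytes enter through venules that make the mucin Glycam1. Folate carries the one-carbon units used to make nucleotides and to regenerate methionine, the precursor of the methyl donor for DNA methylation. In bulk RNA, fewer cells of a type and less RNA per cell cannot be told apart.

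Ms4a1 chose the libraries, so its level is only a description. By total reads it stood at 46.0, 124 and 107 CPM in the 5 mg/kg libraries and at 203, 13.5, 138 and 186 in the 1 mg/kg libraries. The library just inside the threshold was 1 mg/kg replicate 3, at 13.5, and the library just outside was 5 mg/kg replicate 5, at 0.823. Most other node genes sorted the libraries the same way, but Madcam1 and Ccl19 did not. The B cell receptor gene Cd79a ranged from 8.33 to 108 in the 7 node-rich libraries and from 0.270 to 0.436 in the node-poor ones. Glycam1 ranged from 74.8 to 689 against 0.744 to 5.41, and the T cell receptor gene Cd3e from 3.43 to 34.5 against 0.176 to 1.06. Of the node chemokine markers, Ccl21a was listed at 0 in all 12 libraries and Ccl19 did not exceed 0.374. The venule gene Madcam1 overlapped between the classes, at 0.195 to 2.73 against 0.0266 to 0.295. The label rests on the B cell and T cell genes, Cxcl13 and the venule genes Glycam1 and Chst4. Fat and epithelium were present beside the node: Adipoq ranged from 313 to 645 and Krt18 from 29.2 to 115 in the node-rich libraries.

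**Figure D1:**
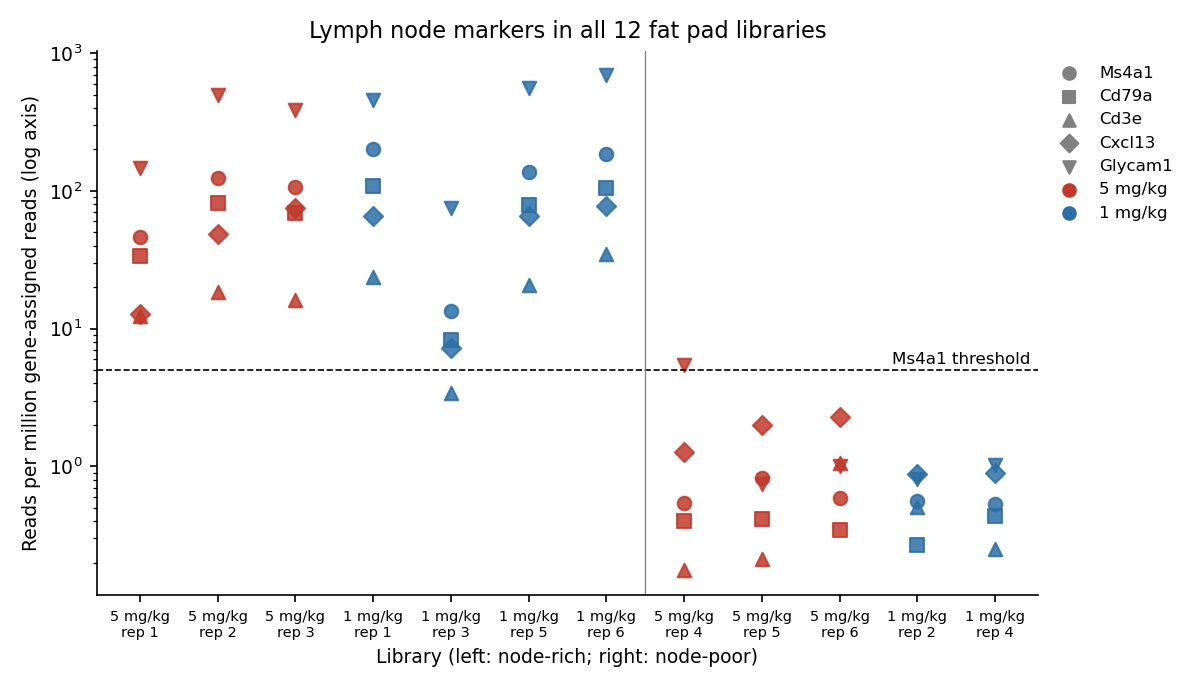
CPM by total gene-assigned reads (log axis) of the B cell genes Ms4a1 and Cd79a, the T cell gene Cd3e, the follicle chemokine Cxcl13 and the venule gene Glycam1 in each of the 12 libraries, coloured by dose; the dashed line is the Ms4a1 threshold of 5. The 7 node-rich libraries lie on the left, and 1 mg/kg replicate 3 has the lowest value of each gene among them.

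The 1 mg/kg replicate 3 library stood apart before any comparison by dose. The first principal component held 50.4% of the variance of the 500 most variable genes and placed this library at -41.1, against -7.95 to 18.3 for the other 6. Its B cell list level, the mean log2 CPM of 25 genes, was 3.30, against 4.71 to 5.86 in the others. Gene-assigned reads numbered 48.2 to 64.9 M per node-rich library, and 39.2% to 52.9% of them came from the 2 mitochondrial ribosomal RNAs. Between the doses, the measures of depth and quality gave exact two-sided permutation p values of 0.457 to 0.8. With 3 against 4 libraries the smallest p that test can give is 0.0571, so no single value can pass 0.05 by it.

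The node compartments themselves were read first. From here on levels are CPM scaled by trimmed-mean (TMM) factors over the 7 libraries, and fold changes are log2 values of 5 mg/kg minus 1 mg/kg. Where levels are listed per library, the 3 libraries at 5 mg/kg come first, in replicate order, and the 4 at 1 mg/kg follow after "against". The B cell list level was 4.71, 5.49 and 5.50 in the 5 mg/kg pads against 5.78, 3.30, 5.75 and 5.86 in the 1 mg/kg pads. The mean of these levels was 5.24 in the 5 mg/kg pads and 5.17 in the 1 mg/kg pads. Of the list's 25 members, 24 had a negative fold change and none passed the test. Their median was -0.16, so the fold changes and the mean levels differed in sign. Without 1 mg/kg replicate 3 the median was -0.51, and without 5 mg/kg replicate 1 it was 0.04 with 15 genes positive. By limma-voom it was 0.08. The mean T cell list level was also slightly higher in the 5 mg/kg pads, at 4.53, than in the 1 mg/kg pads, at 4.51. All 25 genes of that list nevertheless had negative fold changes, with a median of -0.18, and none passed. Leaving out single libraries placed that median between -0.52, without 1 mg/kg replicate 3, and -0.02, without 1 mg/kg replicate 6. By limma-voom it was 0.03 with 15 genes positive. With the muscle and brown fat levels as covariates the T cell median was 0.24 and 0.54, and the B cell median was 0.49 and 0.71. The 18 tested genes of node stroma, venules and lymphatics had a median of -0.10, which was 0.08 without 5 mg/kg replicate 1. Since Ms4a1 set which libraries entered, none of these lists can serve as evidence on how much node the pads held at each dose.

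The balance of T to B cells was read from a marker ratio. The log2 ratio of Cd3e to Cd79a reads was -1.45, -2.15 and -2.09 against -2.19, -1.28, -1.93 and -1.61, and the groups overlapped. The means were -1.90 ± 0.39 (SD, n = 3) and -1.75 ± 0.39 (SD, n = 4), a difference of -0.14 with an exact permutation p of 0.686. Without 1 mg/kg replicate 3 the difference was 0.014.

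Among antibody genes the share of heavy-chain constant reads that came from Ighm, the gene of IgM, separated the doses. It was 61.7%, 62.4% and 59.6% in the 5 mg/kg pads against 53.4%, 57.2%, 49.5% and 56.9% in the 1 mg/kg pads, so the lowest 5 mg/kg library lay above every 1 mg/kg library. The means were 61.2% ± 1.47 (SD, n = 3) and 54.3% ± 3.61 (SD, n = 4). The exact two-sided permutation p was 0.0571, the smallest possible, and 0.857 after adjustment over 15 library measures. This share was added after the data had been seen. The class-switched Ighg2c, an IgG gene, stood at 17.7, 12.8 and 9.13 CPM in the 5 mg/kg pads against 38.4, 39.2, 133 and 3.18 CPM in the 1 mg/kg pads, with overlap. Ighg3 stood at 72.6 CPM in 1 mg/kg replicate 5 and at 0.751 to 7.70 CPM in the other 6 libraries.

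The question of the comparison was whether the folic acid dose of the juvenile and peripubertal period left a mark on the transcriptome. It was asked with the node-poor libraries set aside. No gene passed. The quasi-likelihood test of edgeR placed 0 of 19243 genes (0.0%) under an adjusted p of 0.05, and the smallest adjusted p was 0.996. Before adjustment 709 genes (3.68%) had a p under 0.05, namely 635 (3.3%) with the higher level in the 5 mg/kg pads and 74 (0.385%) with the lower. With DESeq2's size factors (RLE) in edgeR this split was 449 higher and 117 lower, and with upper quartile scaling 443 and 127. The 2 dose groups did not overlap for 997 genes on the higher side (5.18%) and 214 on the lower side (1.11%). That split was 683 and 367 with RLE scaling and 675 and 397 with upper quartile scaling. The median fold change over all genes was 0.0086, with 51.2% of genes positive. The median 95% interval, which is not adjusted for the number of genes, reached 0.62 to either side. Many differences below that size could not have been seen with these libraries, and larger ones also failed to pass after adjustment.

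DESeq2, run as the alternative count test, called 12 of 30448 genes (0.0394%), 11 higher and 1 lower. It named Slc1a5, Hsph1, Myl6b, Irs3, Frem1, Srebf1, Lamc3, Col18a1, Actg2, Enpep, Amotl2 and Aldh3b2. The dose groups did not overlap for any of the 12, against 6.29% of all genes tested by edgeR. The same difference in the same libraries chose these genes, so their separation is no added evidence. The edgeR test without a filter on low counts called 3, namely Srebf1, Enpep and Frem1. The counts at an unadjusted p depended on single libraries. Without 1 mg/kg replicate 3 they were 1575 higher and 1491 lower, without 1 mg/kg replicate 5 they were 314 and 277, without 5 mg/kg replicate 1 they were 234 and 64, and without 5 mg/kg replicate 2 they were 284 and 48. In none of these fits did a gene pass the adjusted threshold. Every gene named below had an adjusted p of 0.996 or more by edgeR, so its values are descriptions of these 7 libraries.

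The gene with the smallest p was Hsph1, which encodes a large heat shock protein that works with the Hsp70 chaperones. It lies on chromosome 5 from 149614287 to 149636376 on the minus strand (GRCm38, GENCODE M21). Its level was 17.4, 16.5 and 16.04 CPM against 28, 32.1, 26.2 and 36.7 CPM. The highest 5 mg/kg library was well under the lowest 1 mg/kg library, and the fold change was -0.89 ± 0.15 (SE; 95% interval -1.23 to -0.54). DESeq2 gave -0.91 with an adjusted p of 0.00463.

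Chordc1, whose protein binds Hsp90, was the next on the lower side. It stood at 39.7, 39.0 and 44.0 CPM against 53.6, 59.4, 56.1 and 56.7 CPM, without overlap. Its fold change was -0.46 ± 0.12 (SE). Mreg, the gene of melanoregulin, stood at 8.997, 11.2 and 9.96 CPM against 16.2, 15.1, 15.9 and 12.7 CPM, a fold change of -0.57 ± 0.15 (SE). Genes that act in T cells were also among the 12 with the smallest p on this side, though bulk RNA does not give their cells of origin. Prkcq, a kinase of T cell receptor signalling, had -0.53 ± 0.17 (SE), and Ikzf2, the transcription factor Helios, had -0.47 ± 0.16 (SE). Slco5a1, Banp, Nek3, Wdr44, Mdm2 and Pde4b were also among the 12, with fold changes from -0.73 to -0.36. Banp was the only one of the 12 whose groups overlapped, and a choice by smallest p favours separated groups.

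Most other heat shock genes lay closer to 0 than Hsph1. Of 22 chaperones and their partners tested, 7 were positive and 15 negative, with a median of -0.07. Hsph1 and Chordc1 were the only ones whose groups did not overlap, both lower, against 1.11% of all genes. Both were named above for their small p, so their separation is no added evidence on the list. Without 1 mg/kg replicate 3 the median was 0.06. Dnaja1, a co-chaperone of Hsp70, stood at 36.7, 49.0 and 41.0 CPM in the 5 mg/kg pads against 58.5, 39.7, 61.5 and 57.6 CPM in the 1 mg/kg pads, with overlap. Hsp90ab1, the most abundant of the list, ranged from 615 to 647 CPM against 482 to 816 CPM.

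On the higher side the 12 genes with the smallest p were Col18a1, Irs3, Srebf1, Enpep, Lamc3, Aldh3b2, Frem1, Myl6b, Actg2, Dmrt2, Adam12 and Apcdd1. None of the 12 overlapped between the doses, and here too the choice by smallest p favours separated groups. Genes of basement membrane and matrix were among them. Col18a1, the collagen of basement membranes that yields endostatin, stood at 56.1, 64.9 and 57.6 CPM against 31.6, 35.5, 24.4 and 34.3 CPM. The fitted fold change was 0.92 ± 0.16 (SE; 95% interval 0.56 to 1.28). The gene lies on chromosome 10 from 77052178 to 77166548 and overlaps Slc19a1, the reduced folate carrier, and whether the counting used strand is not given in the sources used here. Lamc3, a laminin chain, stood at 10.1, 10.5 and 8.94 CPM against 5.74, 4.53, 3.28 and 4.76 CPM, a fold change of 1.104 ± 0.20 (SE). Frem1, a matrix protein of developing epithelia, stood at 17.3, 18.3 and 15.0 CPM against 6.92, 4.72, 3.53 and 8.73 CPM. Its fold change of 1.497 ± 0.29 (SE) was the largest of the 12.

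Irs3, an insulin receptor substrate of rodent fat cells, stood at 10.4, 9.01 and 9.96 CPM in the 5 mg/kg pads against 5.59, 5.14, 5.92 and 4.21 CPM in the 1 mg/kg pads. In edgeR the fold change was 0.91 ± 0.16 (SE). Enpep, a cell surface aminopeptidase that cleaves angiotensin, stood at 76.5, 85.4 and 55.6 CPM against 38.5, 39.2, 29.9 and 29.0 CPM. Its fold change was 1.09 ± 0.19 (SE). Slc1a5, a glutamine transporter that the naming rule did not pick, was added after its values had been seen because DESeq2 gave it its smallest adjusted p, 6.05e-05. Its level was 204, 220.3 and 209 CPM against 138, 118, 134 and 136 CPM, and edgeR gave 0.68 ± 0.14 (SE).

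**Figure D2:**
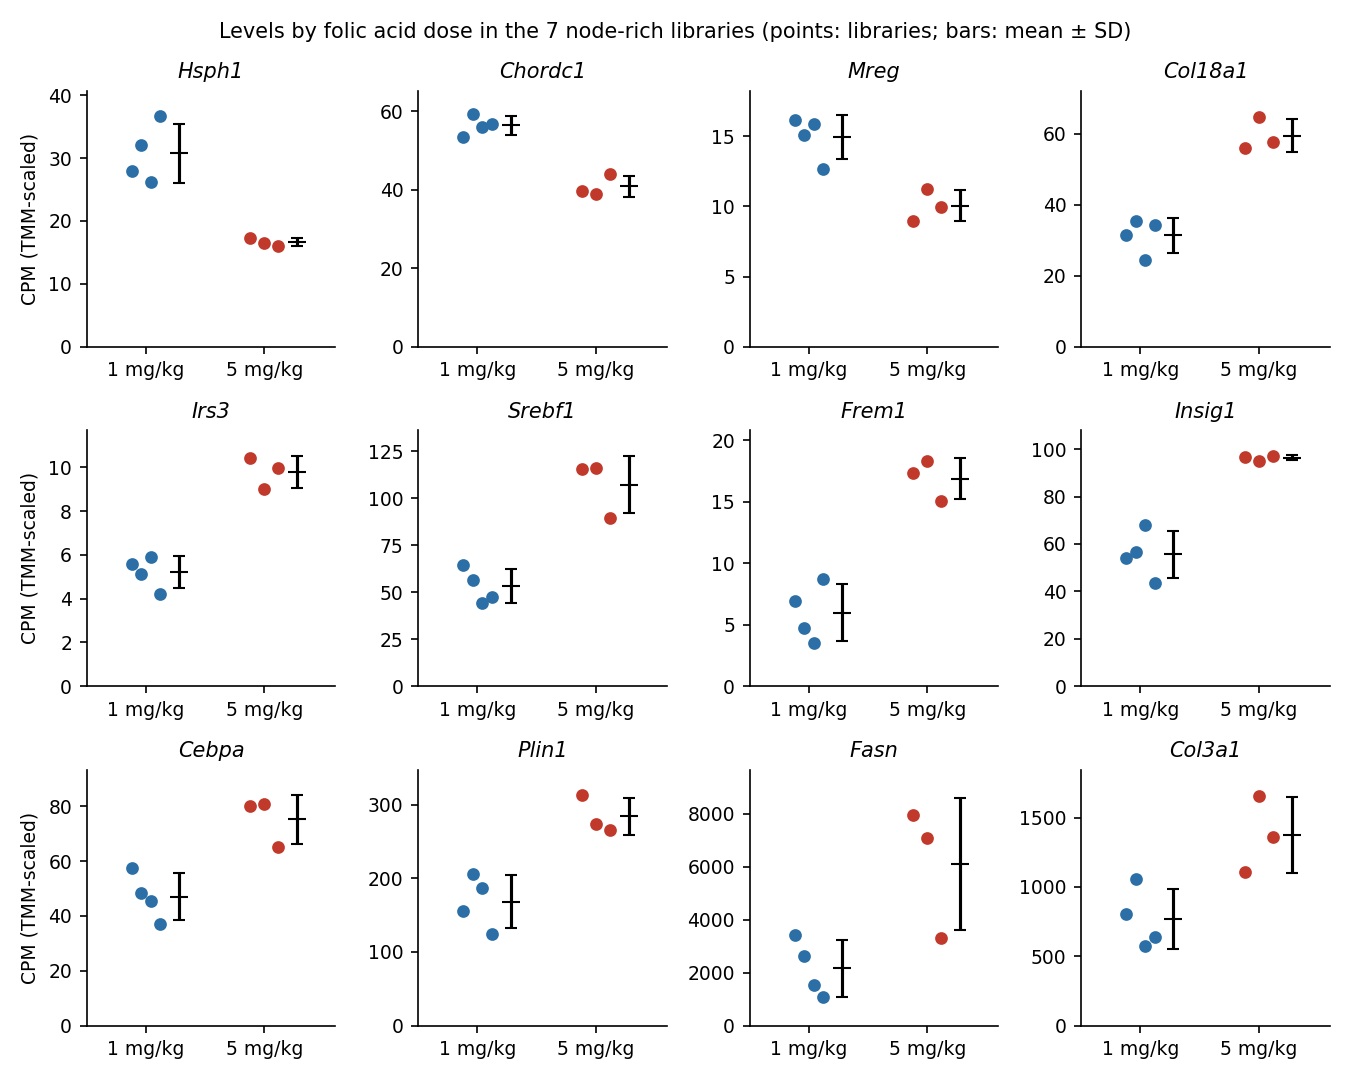
TMM-scaled CPM (linear axes from 0) of 12 genes in the 4 node-rich libraries at 1 mg/kg (blue) and the 3 at 5 mg/kg (red), with the mean ± SD beside the points. Each gene except Fasn separates the 2 doses, and none passed edgeR's adjusted threshold.

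Lipid synthesis genes were the group with the highest list median among those of fat. Srebf1, the transcription factor that drives fatty acid synthesis genes, overlaps Rai1 and 2 microRNA genes. It stood at 116, 116 and 89.7 CPM against 64.4, 56.4, 44.4 and 47.6 CPM. The fitted fold change was 1.01 ± 0.18 (SE). All 22 members of the fatty acid and triglyceride synthesis list were positive, with a median of 0.81, but none passed the adjusted threshold. At an unadjusted p under 0.05 there were 9, against 3.3% of all genes, and the groups did not overlap for 3, against 5.18% of all genes, namely Elovl5, Srebf1 and Dgat1. Fasn, the fatty acid synthase, stood at 7952, 7067 and 3293 CPM in the 5 mg/kg pads against 3439, 2641, 1537 and 1066 CPM in the 1 mg/kg pads. The 5 mg/kg replicate 3 library lay inside the 1 mg/kg range, and the fold change was 1.49 ± 0.50 (SE). Scd1, the stearoyl desaturase and the most abundant of the list, stood at 19706, 17286 and 13644 CPM against 11639, 10816, 14659 and 7901 CPM, with overlap. The list median ranged from 0.59, without 5 mg/kg replicate 1, to 1.01, without 1 mg/kg replicate 3.

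Adipocyte identity genes lay in the same direction. All 22 were positive, with a median of 0.57, and for 9 of them the groups did not overlap, against 5.18% of all genes. That separation depended in part on the scaling. By total reads Adipoq stood at 479, 645 and 633 CPM against 605, 374, 417 and 313 CPM, with overlap. Fabp4, also among the 9, overlapped by total reads too, and Plin1 did not. When library size alone set the scale all 22 were still positive, with a median of 0.54. Cebpa, a transcription factor of fat cell differentiation, stood at 80.0, 80.7 and 65.0 CPM against 57.4, 48.3, 45.5 and 37.1 CPM. In edgeR the fold change was 0.68 ± 0.17 (SE). Plin1, the coat protein of the lipid droplet, stood at 312, 274 and 266 CPM against 156, 205, 187 and 125 CPM, a fold change of 0.75 ± 0.21 (SE). Adrb3, the beta-3 adrenergic receptor, had 0.67 ± 0.19 (SE). Not every fat cell gene was apart: Car3, the most abundant of the list, stood at 4149.6, 3493 and 5364 CPM against 3028, 6873, 4591 and 2106 CPM. With Cd79a as a covariate for node content the list median was 0.64, and it ranged from 0.47 to 0.67 as single libraries were left out.

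Sterol genes gave a smaller median. In the cholesterol list, 20 of 23 genes were positive, with a median of 0.35, and the groups did not overlap for 6, against 5.18% of all genes. Insig1, the sterol sensor that holds the Srebf proteins back, stood at 96.9, 95.1 and 97.0 CPM against 54.2, 56.6, 67.8 and 43.7 CPM. Its fold change was 0.79 ± 0.16 (SE).

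Genes of the fibroblast matrix lay mostly on the higher side. In the fibroblast matrix list 23 of 24 genes were positive, with a median of 0.52, and the groups did not overlap for 10, against 5.18% of all genes. Of these 10, 8 were collagens. Col3a1, a fibrillar collagen, stood at 1106, 1655 and 1356 CPM in the 5 mg/kg pads against 808, 1054, 574 and 638 CPM in the 1 mg/kg pads. The fitted fold change was 0.84 ± 0.29 (SE). Col6a2 stood at 109, 118 and 116 CPM against 77.8, 89.8, 69.9 and 62.6 CPM, a fold change of 0.61 ± 0.16 (SE). The list median was 0.86 without 1 mg/kg replicate 3 and 0.35 without 1 mg/kg replicate 6. All 15 blood endothelium genes were positive, with a median of 0.25, or 0.12 without 5 mg/kg replicate 1. Of these, the tight junction gene Cldn5 had 0.44 ± 0.14 (SE) and the receptor gene Tie1 had 0.34 ± 0.11 (SE). Pecam1, the endothelial adhesion gene, ranged from 125 to 144 CPM against 115 to 148 CPM.

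**Figure D3:**
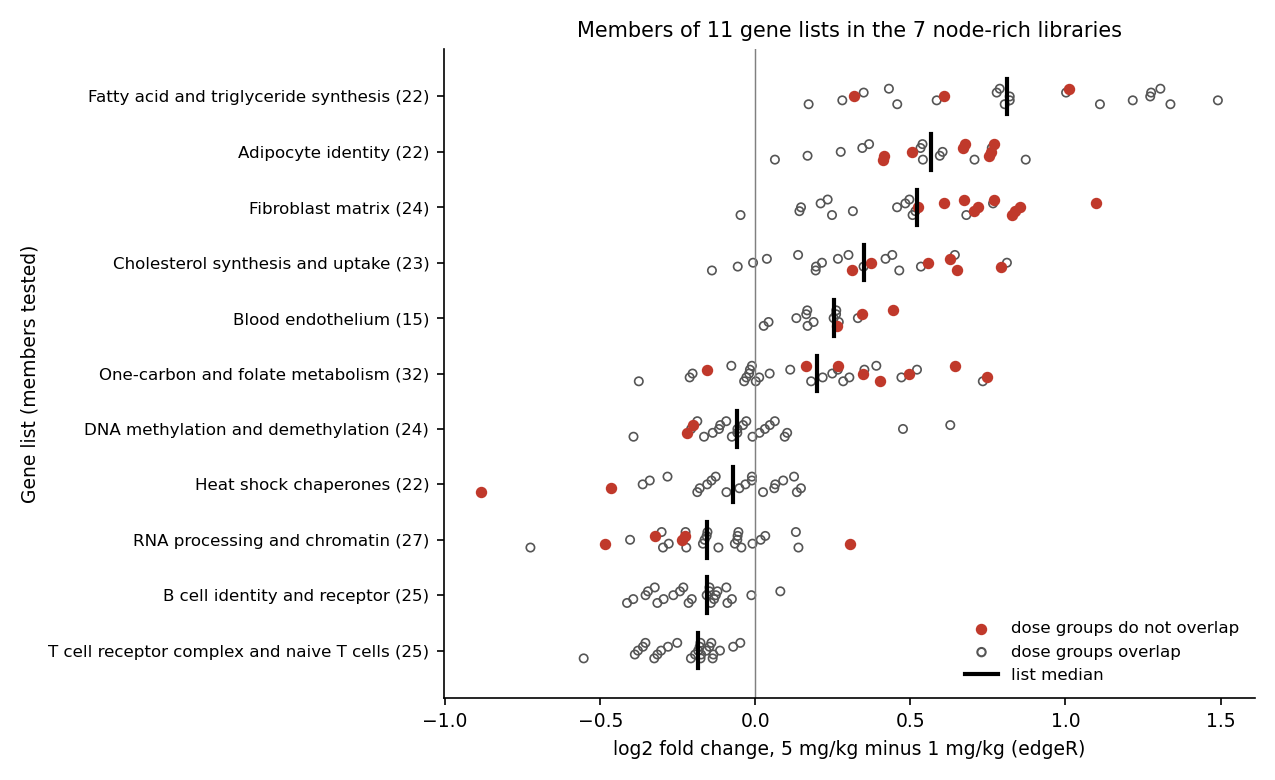
Log2 fold change (5 mg/kg minus 1 mg/kg) of each tested member of 11 gene lists in the 7 node-rich libraries; red points are genes whose dose groups do not overlap and black bars are list medians. The fat, matrix and sterol lists have medians of 0.35 to 0.81, and the B and T cell lists have medians of -0.16 and -0.18. The mean list levels of B and T cells are slightly higher at 5 mg/kg, opposite in sign to these medians.

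Markers of other tissues in the pads also varied between the libraries, and their part in these results was not tested. The brown fat list level was 4.75, 3.52 and 3.78 against 2.35, 4.85, 3.33 and 2.01. Ucp1, its defining gene, stood at 633, 125 and 172 CPM against 43.1, 451, 111 and 15.2 CPM. The skeletal muscle list level was 8.66, 8.44 and 8.41 against 6.49, 8.51, 8.13 and 7.67. For muscle the median fold change was -0.45 while the mean level was higher at 5 mg/kg, so the 2 summaries differ in sign, and without 1 mg/kg replicate 3 the median was 0.16. The brown fat median of 0.55 was -0.06 without 5 mg/kg replicate 1. The slow-fibre genes Tnnt1 and Myl3 were low in 3 of the 4 libraries at 1 mg/kg: Tnnt1 stood at 27.0, 57.9 and 29.0 CPM against 1.09, 2.02, 2.16 and 29.4 CPM. With the muscle level as a covariate the adipocyte median was 0.42 with 19 of 22 genes positive, and with the brown fat level it was 0.43, also with 19 of 22.

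**Figure D4:**
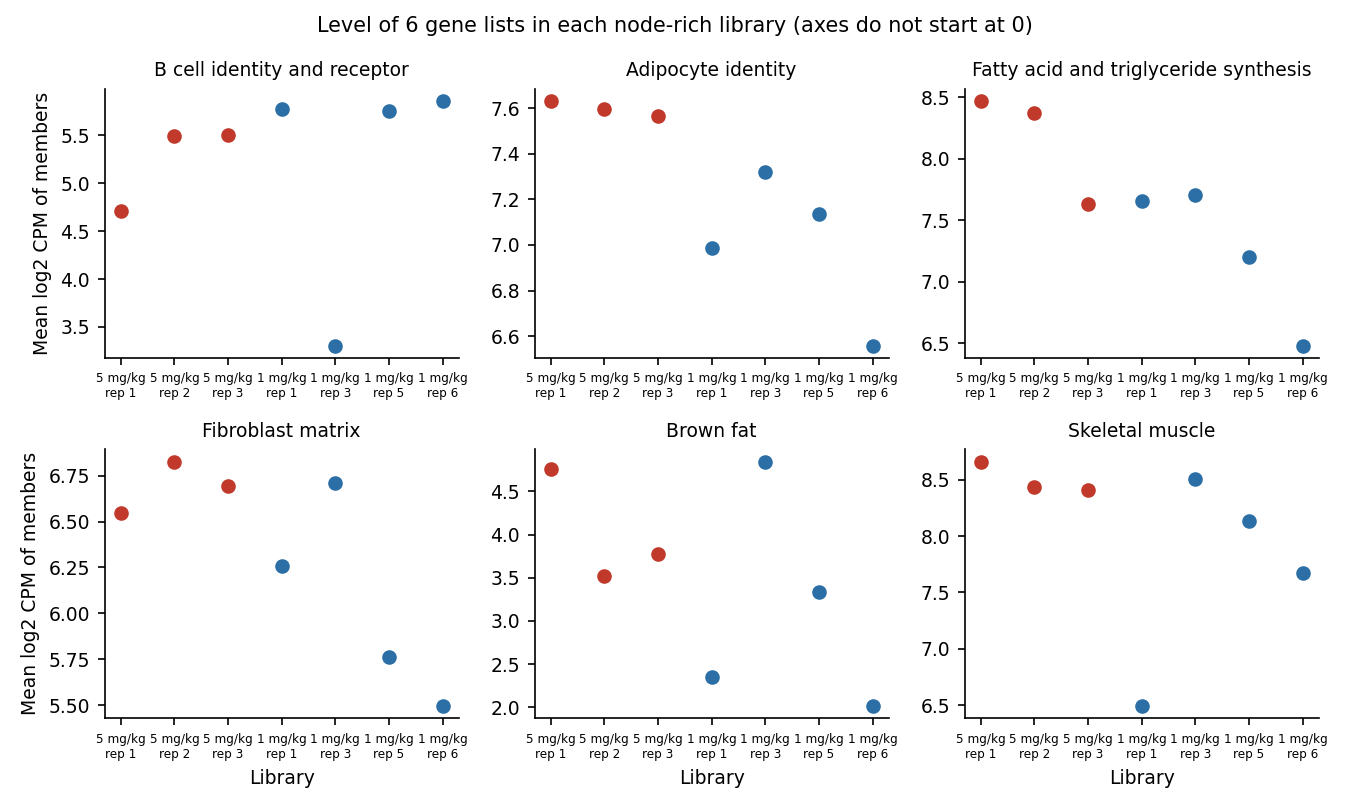
Mean log2 CPM of the tested members of 6 gene lists in each node-rich library (5 mg/kg red, 1 mg/kg blue; the axes do not start at 0). The adipocyte level is at least 7.56 in the 3 libraries at 5 mg/kg and at most 7.32 in the 4 at 1 mg/kg, and the B cell level of 1 mg/kg replicate 3 is 3.30.

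Epithelial levels turned on 1 library. The luminal list level was 3.98, 3.77 and 3.85 against 3.81, 3.66, 2.46 and 3.85, the low value being 1 mg/kg replicate 5. The luminal median of 0.28 over 20 genes became -0.02 without that library. Krt18, a luminal keratin, stood at 95.03, 107 and 69.1 CPM against 67.1, 64.1, 29.4 and 63.6 CPM, without overlap. It was the only 1 of the 20 genes apart, a share near the 5.18% of all genes. Epidermis genes were highest in a single library: Dmkn stood at 4.77 CPM in 5 mg/kg replicate 2 and at 0.0311 to 0.228 CPM in the other 6, and Krt10 stood at 6.503 CPM there and at 0.433 to 0.962 CPM elsewhere.

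Macrophage genes had a median of 0.23, with 16 of 20 positive, and 0.05 without 1 mg/kg replicate 6. Siglec1, the marker of macrophages that line the node's sinuses, stood at 98.9, 119 and 101 CPM against 89.4, 75.4, 78.3 and 93.0 CPM. The groups did not overlap, and the fold change was 0.34 ± 0.15 (SE). Siglec1 was the only 1 of the 20 genes apart, a share near the 5.18% of all genes. Marco, a scavenger receptor of node macrophages, stood at 90.2, 64.5 and 99.6 CPM against 49.2, 59.1, 76.6 and 70.5 CPM, with overlap. In the node-poor libraries Marco did not exceed 0.437 CPM on the scale of all 12 libraries. Sdc1, a syndecan of plasma cells and epithelium, had 0.76 ± 0.20 (SE) in the plasma cell list. The groups did not overlap for 1 of its 24 genes, a share near the 5.18% of all genes.

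Genes of the folate pathway itself were read next. Of 32 genes of one-carbon and folate metabolism 22 were positive, with a median of 0.20, and none passed. The median was 0.09 without 5 mg/kg replicate 1. It was 0.10 when library size alone set the scale, a scaling under which the median of all genes was -0.10. The groups did not overlap for 7 on the higher side and 1 on the lower, 8 of 32 against 6.29% of all genes. Among uptake genes, Slc46a1, the proton-coupled folate transporter, stood at 4.23, 3.73 and 3.53 CPM in the 5 mg/kg pads against 2.84, 3.28, 2.97 and 1.80 CPM in the 1 mg/kg pads. In edgeR the fold change was 0.49 ± 0.23 (SE). The reduced folate carrier Slc19a1 stood at 6.77, 6.78 and 5.84 CPM against 5.99, 4.39, 5.42 and 4.45 CPM, with overlap. Folr2, the folate receptor of macrophages, ranged from 20.9 to 29.7 CPM against 7.79 to 35.2 CPM, and Folr1, the epithelial receptor, stayed under 1 CPM in every node-rich library.

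The enzyme gene with the smallest p was Sardh, whose product breaks down sarcosine in mitochondria. Its locus overlaps the antisense gene Sardhos. It stood at 9.29, 9.87 and 7.62 CPM against 6.26, 5.396, 4.65 and 4.95 CPM, a fold change of 0.75 ± 0.16 (SE). Aldh1l1, which oxidises formyl folate, stood at 44.1, 47.4 and 39.4 CPM against 27.99, 37.7, 27.8 and 18.5 CPM, a fold change of 0.64 ± 0.22 (SE). Mtr, the methionine synthase that links folate to methyl donors, was the only member apart on the lower side. It stood at 33.8, 33.2 and 34.0 CPM against 37.1, 37.4, 36.5 and 38.7 CPM, a fold change of -0.15 ± 0.11 (SE). Mthfd1, a cytosolic enzyme with several folate activities, had -0.02 ± 0.14 (SE; 95% interval -0.33 to 0.30).

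DNA methylation genes centred near 0. Of 24 genes 8 were positive, the median was -0.06, and the groups did not overlap for 2, both lower, against 1.11% of all genes. Dnmt3a, a de novo methyltransferase, stood at 43.2, 40.2 and 41.8 CPM against 43.9, 47.8, 47.8 and 52.6 CPM. Its fold change was -0.20 ± 0.12 (SE). Uhrf2 had -0.22 ± 0.12 (SE). Dnmt1, the maintenance methyltransferase, ranged from 48.9 to 54.0 CPM in the 5 mg/kg pads. In the 1 mg/kg pads it was 28.3 CPM in replicate 3 and 56.8 to 61.7 CPM in the rest. Imprinted genes had a median of 0.17, with 24 of 31 positive, and 0.05 without 5 mg/kg replicate 1. Among them Peg10, a paternally expressed gene, had 0.64 ± 0.22 (SE).

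RNA processing genes were the list with the most members apart on the lower side. Of 27 genes, 22 were negative, with a median of -0.16, and 4 were apart lower, against 1.11% of all genes. On the higher side 1 was apart, Med16, against 5.18% of all genes. Several members had been placed on this list because they stood out in an earlier analysis of these libraries, so its direction is not independent evidence. Upf2, a factor of nonsense-mediated decay, stood at 31.8, 30.4 and 35.8 CPM in the 5 mg/kg pads against 39.3, 39.2, 40.3 and 44.4 CPM in the 1 mg/kg pads. The fitted fold change was -0.32 ± 0.12 (SE). Top1, the DNA topoisomerase, stood at 52.6, 54.0 and 58.9 CPM against 66.0, 62.0, 63.3 and 68.7 CPM, a fold change of -0.24 ± 0.12 (SE). With brown fat as a covariate 13 of the 27 were positive, and without 1 mg/kg replicate 6 the median was -0.06.

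Whether the dose difference was particular to node-rich pads was tested directly, as the interaction of dose and node class over all 12 libraries. It passed for 0 of 20832 genes (0.0%), with a smallest adjusted p of 1.00 by edgeR. At an unadjusted p under 0.05 there were 411 (1.97%). The node-poor libraries, 3 against 2, were compared by dose within the same fit of all 12, so the node-rich libraries also set its spread. That dose test also passed for 0 genes, with 395 (1.9%) at an unadjusted p under 0.05. Some lists differed in value between the classes. In node-poor pads the adipocyte list had 8 of 22 genes positive and a median of -0.02, and the fatty acid list had 19 of 22 and a median of 0.22. The brown fat list had 18 of 18 positive and a median of 2.02, and the luminal list had 0 of 20 positive and a median of -0.79. No list was tested for this difference.

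The genes with the smallest interaction p are given as values that did not pass. Hsph1, on the scale of all 12 libraries, stood at 16.8, 20.4 and 15.9 CPM in the 3 node-poor pads at 5 mg/kg against 20.9 and 13.4 CPM in the 2 at 1 mg/kg. There the groups overlapped and the fold change was 0.04 ± 0.21 (SE), so the node-rich minus node-poor difference was -0.96 ± 0.28 (SE). Il15, a cytokine that sustains T and NK cells, had a difference of -0.66 ± 0.20 (SE), and Slco5a1, an organic anion transporter, had -1.40 ± 0.43 (SE). On the other side Actg2, the smooth muscle gamma actin, stood at 3.62, 2.81 and 4.70 CPM in the 3 node-poor pads at 5 mg/kg against 5.36 and 5.24 CPM in the 2 at 1 mg/kg. Its dose difference was negative there, at -0.51 ± 0.24 (SE), and the difference between classes was 1.42 ± 0.32 (SE). Abcc8, a potassium channel regulator, had 2.25 ± 0.48 (SE), and Cnn1, the calponin of smooth muscle and myoepithelium, had 1.58 ± 0.40 (SE). The luminal genes, as given above, were lower at 5 mg/kg in node-poor pads, and their part in these values was not tested.

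**Figure D5:**
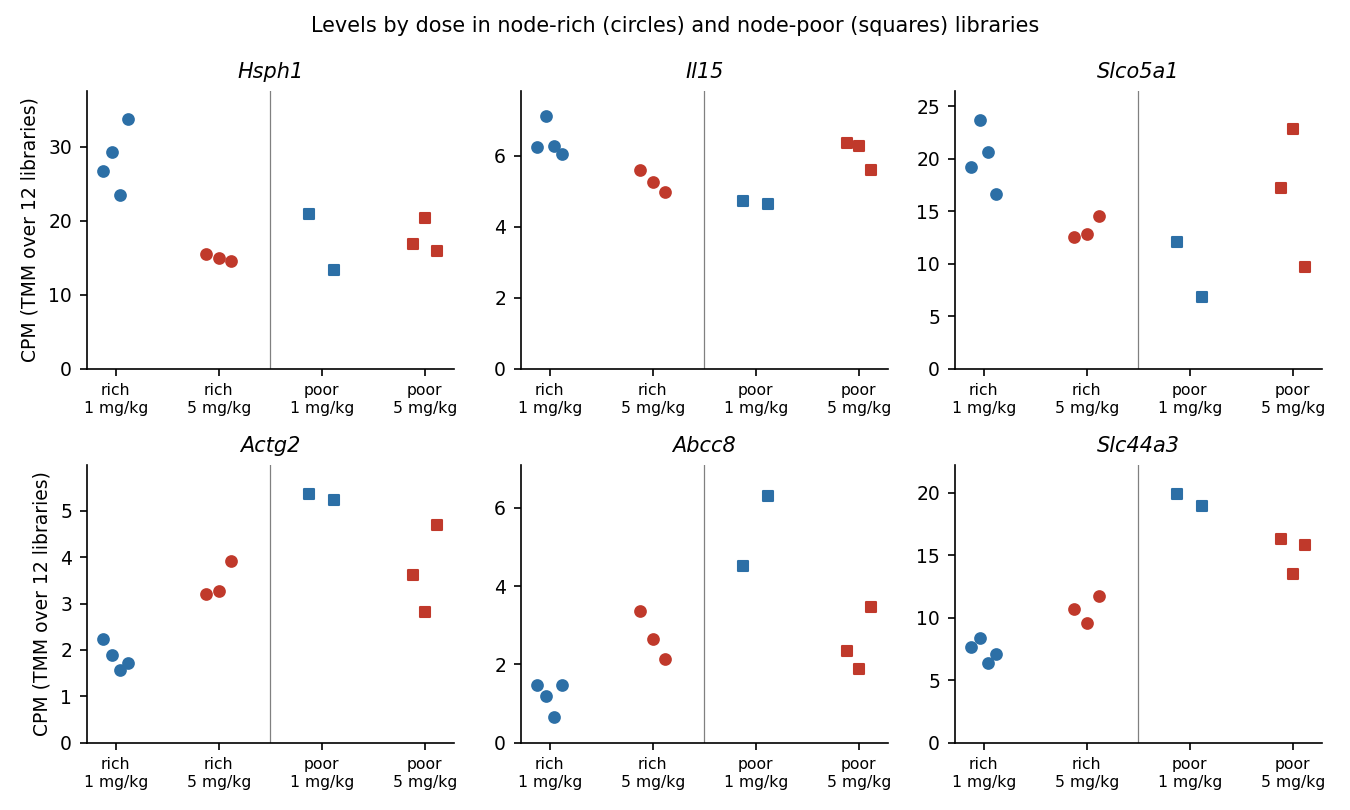
CPM on the scale of all 12 libraries (linear axes from 0) for 6 genes among those with the smallest interaction p, in node-rich libraries (circles) and node-poor libraries (squares) at each dose. In the node-rich libraries the doses are apart for all 6, and in the node-poor libraries Hsph1 overlaps and Actg2, Abcc8 and Slc44a3 lie higher at 1 mg/kg. In the dose fit of the node-rich libraries the groups did not overlap for 6.29% of all genes. A choice by smallest interaction p favours separated groups, so the separation is no added evidence.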

How the data were processed

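RNA of the fat pads was made into libraries with a TruSeq kit, per the labels' protocols. The authors deposited read counts per gene, 1 table per library. Alignment was with STAR to mm10 and counting with HTSeq 0.6.1, per the submitters' processing notes. Annotation and strand setting: not given in the sources used here. The 55487 gene IDs were named from GENCODE M21, which matched 55141, and the 5 tally lines were left out of totals. Node class used Ms4a1 counts over gene-assigned reads. The members, the 35 gene lists and the tests were chosen with earlier results of these data known. Counts were fitted with edgeR 4.0.16 (filterByExpr, TMM, robust quasi-likelihood, no covariate) on R 4.3.3, and p-values were adjusted over all genes (Benjamini-Hochberg, threshold 0.05). The 7 node-rich libraries entered the dose fit, and all 12 entered the fit of the interaction and of the node-poor dose test. Alternatives used DESeq2 1.42.0, limma 3.58.1, other scalings, filters, covariates and leaving out each library. SE is the fold change over the root of the F statistic. Named genes were, by rule, the 12 with the smallest p and a mean of at least 1 CPM in each direction (6 for the interaction), the 3 with the smallest p and the most abundant of each list, and a fixed set. No 2 node-rich libraries of a dose were duplicates (chi-square per degree of freedom at least 41.7 over 9 pairs). The fit was tested on simulated counts. The groups of 3 and 4 libraries limit precision, and depth was 48.2 to 64.9 M counts per library. A few named genes are not reported here.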

Additional observations from a re-analysis of the deposited data

Results flagged for a closer look

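Each value here came from 1 library that lay far from the other 3 node-rich libraries at 1 mg/kg. Its gap to the nearest of them, as a share of the group's range, passed Dixon's 95% criterion. Of 140 values tested 22 did so. Chance gives about 1 in 20 for independent values, and these are not independent, since genes, lists and shares overlap. No cause was tested.

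Most of the low values belonged to replicate 3, the library with the least node RNA. Among its B cell genes Cd79a stood at 12.04 CPM and Cr2, a complement receptor of B cells, at 17.4 CPM. Its list levels, in mean log2 CPM, were 3.30 for B cells, 2.85 for the T cell receptor complex and 0.71 for regulatory, helper and cytotoxic T and NK cells. They were 3.71 for MHC class II and dendritic cells and 2.28 for lymphocyte activation. Dnmt1, a methyltransferase abundant in dividing cells, stood there at 28.3 CPM, and 29231 genes were detected.

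The same library was the highest of the 4 in genes of other compartments. Acacb, the acetyl-CoA carboxylase of fat and muscle mitochondria, stood at 264 CPM, Acot11, a thioesterase of brown fat, at 44.5 CPM and Kng2, a kininogen, at 1.15 CPM. The imprinted list level was 3.50 and the blood endothelium level 4.88.

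Replicate 5 was highest in the IgG gene Ighg3, at 72.6 CPM and 6.61% of heavy-chain constant reads. It was lowest in epithelium, with Krt18 at 29.4 CPM, a luminal list level of 2.46 and a hormone-sensing luminal level of 2.45. Replicate 6 was highest in the slow muscle genes Tnnt1, at 29.4 CPM, and Myl3, at 6.93 CPM. It was also highest in Adam12, a metalloprotease, at 21.9 CPM, where the other 3 lay within 18.7 to 18.97 CPM.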

How the results depend on the processing

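No gene passed for dose under any setting except DESeq2 (12) and no filter on low counts (3), and none passed for the interaction under those run for it (limma-voom, library size alone, 1 CPM in 3 libraries, left-out libraries). Leaving out single libraries gave 0 in each. The counts at an unadjusted p under 0.05 (635 higher, 74 lower) were 2391 and 1047 with limma-voom and sample weights, 182 and 42 by library size alone, 1485 and 512 with Cd79a, 388 and 559 with muscle and 1311 and 984 with brown fat as covariate. The higher count was 249 over 12 libraries by dose only. The lower count was 235 with DESeq2, 117 with RLE scaling, 127 with upper quartile, 487 without a filter, 45 at 1 CPM in 3 libraries, 112 without the mitochondrial rRNAs, 157 over 12 libraries in 4 groups and 294 with the luminal covariate. Leaving out single libraries gave 234 to 1575 higher and 48 to 1491 lower. Genes whose groups do not overlap (997 higher, 214 lower) numbered 381 and 117 by library size alone. The lower count was 367, 397 and 351 with RLE, upper quartile and no mitochondrial rRNA. Leaving out libraries gave 906 to 2304 higher and 337 to 2333 lower. Smaller groups separate more easily, so these counts cannot be compared directly with those of the full groups. The causes were not tested.

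Of 191 named genes, 1 to 42 changed sign under the alternatives that gave any change, most with brown fat as covariate. The difference of Mthfd1 (-0.02) was 0.0041 with sample weights, 0.071 by dose only over 12 libraries, 0.065 with the luminal covariate and -0.090 to 0.027 over left-out libraries, with 0.0012 without 1 mg/kg replicate 3. The Cd3e to Cd79a difference ranged from -0.37 to 0.014. Differences in depth ranged from -4.72 to 0.867 M reads, in genes detected from -2046 to 547 and in the mitochondrial rRNA share from -0.777 to 4.33 points. Library size alone lowered the median of all genes to -0.10. No paired analysis was possible because the replicate numbers follow accession order and pair nothing. At 3 against 4 libraries the median 95% interval of 0.62 on the log2 scale limits what could be detected.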
